A study of Drosophila melanogaster with 18 samples.

Results

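The cytosolic ribosomal protein genes of Drosophila melanogaster were followed across 18 RNA-seq libraries of L3 larvae. The members were all genes whose FlyBase symbol starts with RpL or RpS followed by a digit, an A or a P, which gave 92 of the 17411 genes in the count files. By the symbol, 54 encode or resemble proteins of the large (60S) subunit and 38 of the small (40S) subunit. Of the 92, 13 end in b or -like and were set apart as possible tissue-limited paralogues, and the other 79 were taken as the core. The ribosomal proteins encoded by sta and Rack1 have symbols outside this rule and are given separately.

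All larvae carried the driver mef2, which acts in muscle, and were kept at 25 °C. Controls expressed lacZ (mef2>lacZ), and the other larvae overexpressed the AMPK-related kinase NUAK from a line numbered 548 or 550 in the labels (mef2>NUAK 548, here NUAK548, and mef2>NUAK 550, here NUAK550). Each genotype was sequenced as whole L3 larvae and as L3 muscle carcass, the body wall left after dissection, with 3 libraries in each of the 6 groups. The labels do not say what the numbers 548 and 550 stand for, give no sex, and leave unsaid whether a group's libraries came from separate crosses. The p-values therefore measure the spread between these libraries only. NUAK cannot be told apart from any other genetic difference between the lines, and Nuak reads from the transgene and the resident gene were counted together.

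A ribosome is built from one copy of nearly every ribosomal protein together with the ribosomal RNAs, so cells make these proteins in near-equal numbers. In flies, losing one copy of most of these genes gives the Minute phenotype of slow development and thin bristles. Their messenger RNAs are among the most abundant in growing tissue, and growing larval muscle adds mass without dividing its fibres. Several genes exist as a pair of copies, and some of the copies, such as RpL22-like, RpS5b and RpS19b, are known in flies for expression in the germ line.

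Counted reads per library ran from 14577914 to 22341807. Nuak was higher than in lacZ in every NUAK library, by 6.70-fold (NUAK548) and 10.9-fold (NUAK550) in muscle and by 14.0-fold and 27.8-fold in whole larvae. Levels are given as CPM, counts relative to the library total, scaled by the trimmed mean of M values (TMM). The scaling was done within each preparation, so CPM of muscle and of whole larvae are not on a common scale. None of the 10 fixed body wall muscle markers was at 0 in any library. Their summed level was 38205 to 58970 CPM in lacZ muscle and 2514 to 10808 CPM in lacZ whole larvae. Some libraries stood apart from their group. The first lacZ whole-larva library held the largest share of ribosomal protein counts among whole larvae. The first NUAK548 whole-larva library had the lacZ level of the male-specific noncoding RNA lncRNA:roX1 (222 CPM, against 196 to 228 CPM in lacZ whole larvae), while the other two had 26.8 and 22.9 CPM. In muscle, lncRNA:roX1 was at 400.0, 428 and 456 CPM in lacZ, at 279, 210 and 113 CPM in NUAK548 and at 49.4, 55.2 and 50.4 CPM in NUAK550, so it separated the 3 genotypes, and the labels give no sex to set beside it.

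The levels per length split the members in a way that the suffixes did not. Expressed as TPM (a level per exon length, computed from the counts), 81 members had a mean above 100 TPM in every one of the 6 groups. These were 75 core genes and 6 genes with a paralogue suffix, RpL10Ab, RpL34b, RpS10b, RpS14b, RpS28b and RpL24-like. Another 9 members stayed at 25 TPM or less in every group. They were 5 with the suffix (RpL7-like, RpS28-like, RpL22-like, RpS19b and RpS5b) and 4 without it (RpL10Aa, RpL37-2, RpS28a and RpS10a). RpLP0-like and RpS15Ab lay between, at 26.1 and 52.8 TPM in lacZ muscle. Thus for RpL10A, RpS10 and RpS28 the copy named a was the low one and the copy named b the abundant one.

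Among the 81 abundant members the median level in lacZ muscle was 1514 TPM, with the middle of the distribution between 1178 and 1889 TPM. The 3 core members with the highest level were RpL41, which encodes a very small basic peptide, at 5572 TPM, RpL27A at 4472 TPM and RpLP2, a protein of the acidic stalk, at 4028 TPM. At the lower end of the 81 stood RpL24-like at 183 TPM and RpL34a at 265 TPM. RpL24-like is the fly counterpart of a yeast factor that holds the place of the ribosomal protein during assembly.

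The genes are short and many carry other genes inside them. The median exon length was 865 bases in the core members and 1749 in the 13806 other protein-coding genes. Small nucleolar RNA genes, whose products guide ribosomal RNA modification, lay inside 26 of the 79 core members (32.9%) and inside 0.406% of the other protein-coding genes. In all, 69 such RNAs lay in core members, and RpS5a alone (X, 17143588 to 17148264) held 14.

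In muscle, ribosomal protein genes took a larger share of the counted reads in NUAK than in lacZ larvae. All 92 members together held 8.04%, 8.48% and 7.76% of the counts in the lacZ muscle libraries (8.09 ± 0.363%, SD, n = 3). The share was 8.96%, 9.07% and 9.46% in NUAK548 muscle (9.16 ± 0.258%, SD, n = 3) and 10.3%, 11.1% and 10.2% in NUAK550 muscle (10.5 ± 0.472%, SD, n = 3). The 3 groups did not overlap and stood in the order lacZ, NUAK548, NUAK550. The counts of 60S genes divided by those of 40S genes stayed between 1.57 and 1.65 in all 18 libraries, so both subunits shifted in step.

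**Figure D1:**
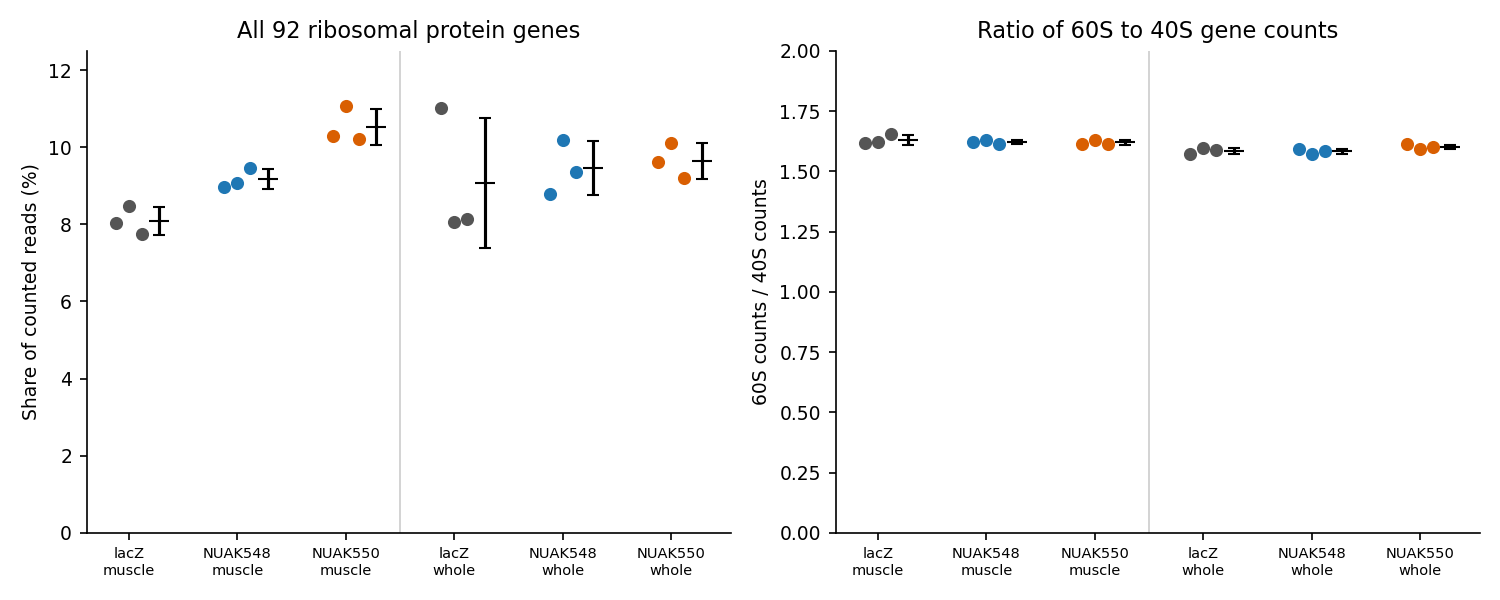
Share of all counted reads held by the 92 ribosomal protein genes (left, percent) and the ratio of 60S to 40S gene counts (right), 1 point per library, with the group mean and SD (n = 3) as black bars. The muscle groups do not overlap on the left, from 7.76% to 8.48% in lacZ up to 10.2% to 11.1% in NUAK550, while the whole-larva groups overlap and the ratio stays between 1.57 and 1.65.

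NUAK550 muscle was compared with lacZ muscle gene by gene by edgeR's quasi-likelihood test. Of the 84 members with enough counts to be tested, 68 rose and none fell at a Benjamini-Hochberg adjusted p below 0.05, where 6.45% of all 9821 genes tested rose and 6.11% fell. The median member stood 1.43-fold above lacZ (log2 0.51, against 0.03 over all genes), and the fitted changes ran from log2 0.10 to 0.89. In 82 of the 84 the NUAK550 libraries all lay above the lacZ libraries, and in none below, where the shares of all genes were 17.8% and 16.3%. Members of both subunits rose, 27 of 32 abundant 40S genes (median log2 0.52) and 41 of 49 abundant 60S genes (median log2 0.50).

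Among the 40S genes RpS12 rose most. RpS12 (FBgn0260441, 3L 13023352 to 13024762) encodes a protein that in flies also signals ribosomal protein imbalance between neighbouring cells. Its level was 501, 596 and 471 CPM in lacZ muscle, 614, 740.0 and 724 CPM in NUAK548 muscle and 1047, 929 and 923 CPM in NUAK550 muscle. All NUAK550 libraries lay above all NUAK548 libraries, and these above all lacZ libraries. The rise in NUAK550 was 1.85-fold (log2 0.89, SE 0.13, adjusted p = 0.00582), and NUAK548 gave log2 0.41 (SE 0.13, adjusted p = 0.120), short of the threshold.

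RpS3A, on the small chromosome 4 (FBgn0017545, 4 65225 to 67207), encodes a 40S protein near the messenger RNA exit. It went from 1739, 1834 and 1671 CPM in lacZ muscle to 2618, 2789 and 2727 CPM in NUAK550 muscle, a log2 change of 0.63 (SE 0.11, adjusted p = 0.00834). RpS13 (FBgn0010265) had the lowest fitted change of the core, from 677, 693 and 630 CPM to 862, 832 and 870 CPM (log2 0.36, SE 0.10, adjusted p = 0.0470). Even there the 2 groups did not overlap.

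Among the 60S genes, RpL41 (FBgn0066084, 2R 24903416 to 24903935) had the highest fitted change. It was at 1211, 1292 and 1036 CPM in lacZ muscle and at 1984, 2309 and 2245 CPM in NUAK550 muscle (log2 0.89, SE 0.19, adjusted p = 0.0210). In NUAK548 muscle the third library, at 1814 CPM, stood far above the first and the second, at 1122 and 1276 CPM. The 60S genes with the smallest p were RpL27 (log2 0.58, SE 0.09, adjusted p = 0.00786), RpL35, whose protein sits at the exit of the peptide tunnel (log2 0.64, SE 0.11, adjusted p = 0.00866), and RpL28 (log2 0.61, SE 0.10, adjusted p = 0.00888).

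RpL27 (FBgn0039359, 3R 25683623 to 25685051) was at 751, 806 and 740 CPM in lacZ muscle and at 1125, 1149 and 1171 CPM in NUAK550 muscle. Exons of Idh3g on the other strand overlap 16.0% of its exon length, so reads there may belong to either gene. RpL9 was among the highest changes as well (log2 0.65, SE 0.12, adjusted p = 0.0112). Lowest among the 60S core were RpL4 (log2 0.36, SE 0.12, adjusted p = 0.0887), which lines the peptide tunnel, and RpL26 (log2 0.39, SE 0.10, adjusted p = 0.0422). The 16 members that missed the threshold also held RpL38, RpLP2, RpLP0, RpL23 and RpL27A, with log2 changes of 0.43 to 0.57, and RpS15Ab at log2 0.10 (SE 0.13, adjusted p = 0.651).

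The number of calls depended on single libraries. Leaving out libraries in turn left 3 to 70 members called, with 8 and 7 when the first or the third lacZ library was missing and 22, 33 and 3 when the first, the second or the third NUAK550 library was, while the median log2 change stayed between 0.47 and 0.58. The shares of all genes called in those fits are not given here. With library totals in place of TMM 32 members rose (median log2 0.37, against −0.12 over all genes). In that setting 381 of all 9821 genes rose and 855 fell. With the lncRNA:roX1 level as a covariate none was called and the median log2 was 0.18, with RpL41 and RpL24 at −0.61 and −0.60. Since lncRNA:roX1 separated lacZ from NUAK550 without overlap, its part and that of the genotype cannot be told apart in this design.

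Muscle and hemocyte markers also moved in NUAK550 muscle, the hemocyte sums with overlap. No marker of testis, germ cells, fat body, salivary gland, imaginal disc or neuron was called there against lacZ. The summed body wall muscle markers were at 76848 to 115585 CPM there, above the 38205 to 58970 CPM of lacZ muscle, and Act57B was the 1 of 10 that passed the test. The 5 hemocyte markers summed to 543 to 1172 CPM against 406 to 591 CPM, with NimC1 and He called higher. Testis markers were at 55.5 to 69.8 CPM against 58.2 to 71.1 CPM. The part of these shifts in the ribosomal protein result was not tested, and in bulk tissue more cells of a type cannot be told apart from more RNA per cell.

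NUAK548 muscle held the same direction at a smaller size. Of 84 members tested 1 rose, RpS14a, and none fell, where 2.6% of all genes rose and 2.96% fell. The median log2 change was 0.20 (0.01 over all genes), and 78 of 84 were above 0. At an unadjusted p below 0.05, 19 members were higher, against 1085 genes higher and 1100 lower of all 9821. DESeq2 called 18 members higher, against 486 genes higher and 596 lower. In 36 members, all higher, the groups did not overlap, which held upwards for 14.4% and downwards for 13.2% of all genes. Both NUAK comparisons use the same 3 lacZ libraries. The hemocyte markers summed to 563 to 952 CPM in NUAK548 muscle against 406 to 591 CPM in lacZ, with NimC1 and eater called higher, and their part was not tested.

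The order among members differed between the NUAK groups. In NUAK548 muscle the highest fitted changes of the core after RpS14a were those of RpS12 (log2 0.41) and RpL15 (log2 0.39, SE 0.11, adjusted p = 0.0830), and the lowest those of RpL38 (log2 −0.15, SE 0.24), RpLP2 (log2 −0.09, SE 0.22) and RpL27A (log2 −0.04, SE 0.17). These last members varied widely between libraries. RpL38 was at 801, 1069 and 874 CPM in lacZ muscle and at 603, 759 and 1108 CPM in NUAK548 muscle, so that the groups overlapped.

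**Figure D2:**
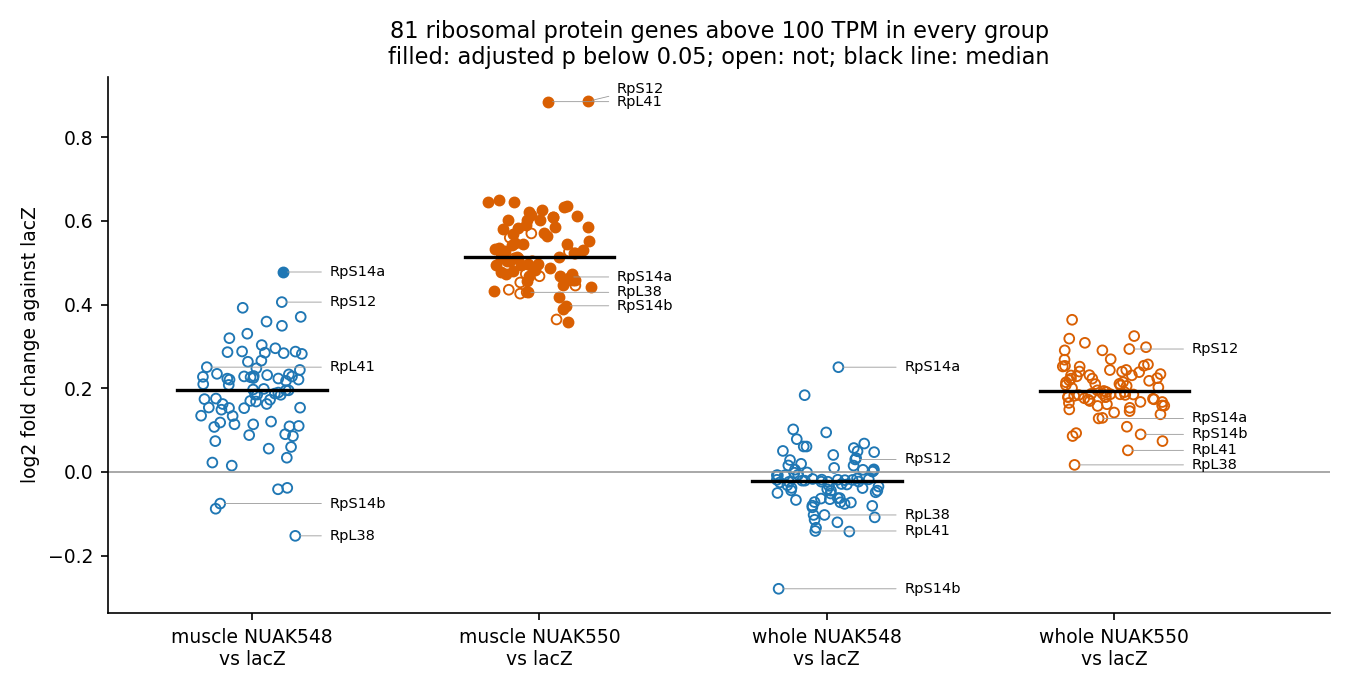
Fitted log2 fold change against lacZ of the 81 ribosomal protein genes above 100 TPM in every group, 1 point per gene in each of 4 comparisons, filled where the adjusted p was below 0.05 and with the median as a black line. The medians are 0.20 and 0.51 for NUAK548 and NUAK550 in muscle and −0.02 and 0.19 in whole larvae, RpS14a is the highest point in both NUAK548 columns, and RpS14b is the lowest in that of whole larvae.

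Compared directly, NUAK550 and NUAK548 muscle differed in no member by edgeR, where 0.937% of all genes were higher and 0.509% lower. The median log2 difference was 0.30 in favour of NUAK550 (0.01 over all genes). At an unadjusted p below 0.05, 69 members were higher, against 1154 genes higher and 867 lower of all 9821. DESeq2 called 36 members higher, against 490 genes higher and 348 lower. In 75 members, all higher, the groups did not overlap, against 13.4% of all genes upwards and 11.2% downwards. Highest were RpL41 (log2 0.63, SE 0.19, adjusted p = 0.126), RpL38 (log2 0.58, SE 0.24) and RpL23 (log2 0.55, SE 0.19), and lowest in the core RpS14a (log2 −0.01, SE 0.11), RpL4 and RpL3.

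The members kept nearly fixed proportions to each other. For each library the level of each of the 81 abundant members was set against the median of the 81. In NUAK550 muscle 79 of 81 lay within log2 0.20 of their relative level in lacZ muscle, the exceptions being RpS12 (0.39 higher) and RpL41 (0.38 higher). In NUAK548 muscle 72 of 81 did, with RpS14a 0.34 higher and RpL38 differing by −0.32 at the ends. Medians by place in the genome and by structure lay close together in NUAK550 muscle, at log2 0.50 for 14 members on the X chromosome, 0.52 for 67 on the autosomes, and 0.52 and 0.51 with and without a small nucleolar RNA inside.

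RpS14 is encoded by a pair of neighbouring copies on the X chromosome, RpS14a (FBgn0004403, X 7933742 to 7934677) and RpS14b (FBgn0004404, X 7934898 to 7935792), and its protein forms part of the platform of the 40S subunit. The balance between the copies differed in NUAK548 larvae. In muscle, RpS14a was at 596, 669 and 562 CPM in lacZ, at 791, 871 and 883 CPM in NUAK548 and at 832, 868 and 824 CPM in NUAK550. RpS14b was at 279, 313 and 273 CPM in lacZ, at 255, 281 and 284 CPM in NUAK548 and at 375, 388 and 376 CPM in NUAK550. So RpS14a was as high in NUAK548 as in NUAK550, while RpS14b overlapped the lacZ values.

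RpS14a rose in NUAK548 muscle (log2 0.48, SE 0.11, adjusted p = 0.0409) and RpS14b gave log2 −0.08 (SE 0.10, adjusted p = 0.717). The call of RpS14a was lost without any single muscle library in turn. In NUAK550 muscle both rose, by log2 0.47 (SE 0.11, adjusted p = 0.0279) and 0.40 (SE 0.10, adjusted p = 0.0372). In whole larvae neither was called, at log2 0.25 (SE 0.19) for RpS14a and −0.28 (SE 0.20) for RpS14b in NUAK548.

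The ratio of the copies does not depend on the scaling of libraries. RpS14a counts divided by RpS14b counts were 2.14, 2.14 and 2.06 in lacZ muscle, 3.10, 3.10 and 3.11 in NUAK548 muscle and 2.22, 2.24 and 2.19 in NUAK550 muscle. In whole larvae they were 2.05, 2.22 and 2.26, then 2.82, 3.18 and 3.29, then 2.23, 2.18 and 2.24 in the same order of genotypes. All 6 NUAK548 libraries, at 2.82 to 3.29, lay above the 12 others, at 2.05 to 2.26. This pattern was noticed in these data and was given no test of its own. In flies the copies are known to encode the same protein and their sequences were not compared here, so how reads were divided between them is uncertain.

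**Figure D3:**
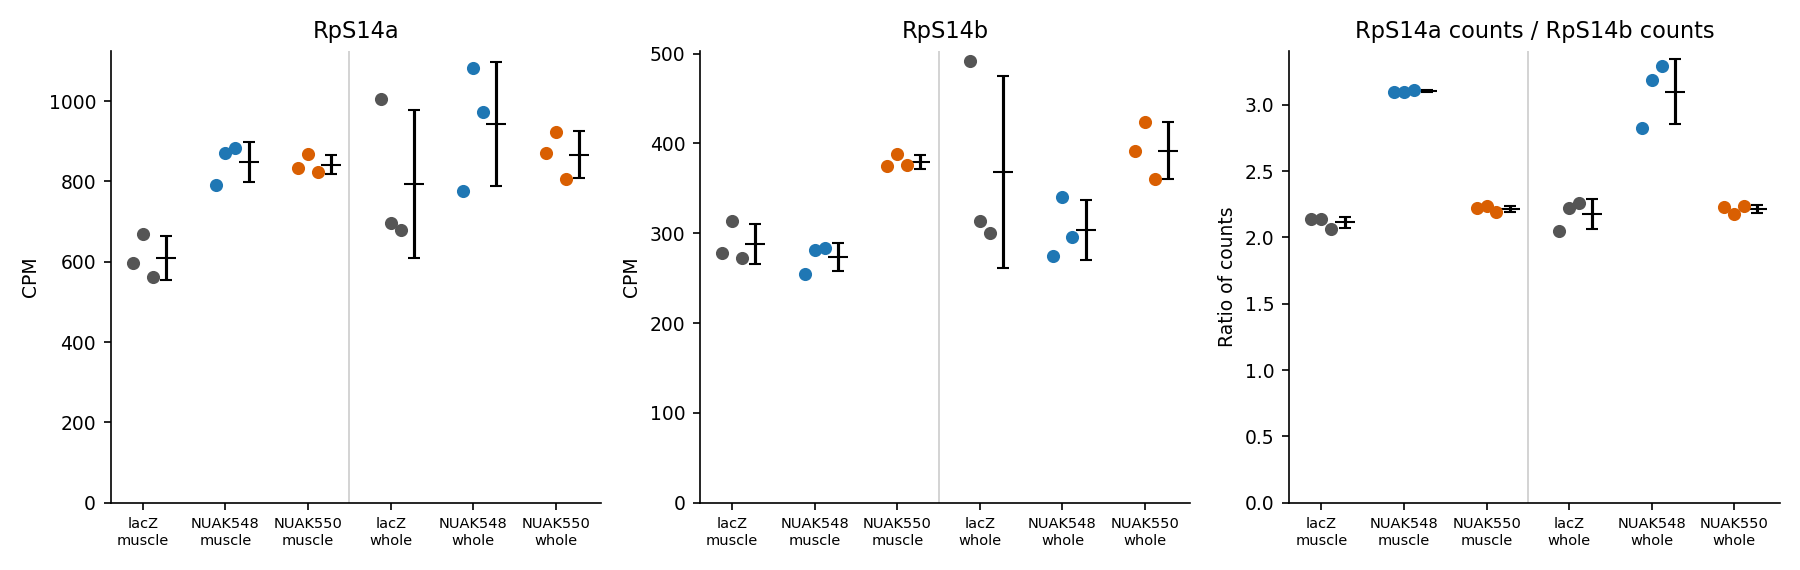
Level of RpS14a (left, CPM) and RpS14b (middle, CPM) and the ratio of their counts (right) in the 18 libraries, 1 point per library, with the group mean and SD (n = 3) as black bars. The ratio lies at 2.82 to 3.29 in the 6 NUAK548 libraries and at 2.05 to 2.26 in the 12 others.

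RpL34b held 82.6% ± 0.653 of the pair RpL34a and RpL34b in lacZ muscle and 83.0% ± 0.466 in NUAK550 muscle (SD, n = 3), and both copies rose there, by log2 0.44 (SE 0.10, adjusted p = 0.0288) for RpL34a and 0.48 (SE 0.12, adjusted p = 0.0369) for RpL34b. RpL10Ab (log2 0.46, SE 0.12, adjusted p = 0.0369) and RpS28b (log2 0.62, SE 0.13, adjusted p = 0.0174) rose in NUAK550 muscle too, while their partners RpL10Aa and RpS28a had 2 and 1 counts in all 9 muscle libraries. RpS10b gave log2 0.43 (SE 0.12, adjusted p = 0.0544). The assembly factor RpL24-like rose with RpL24, by log2 0.46 (SE 0.12, adjusted p = 0.0409) and 0.61 (SE 0.16, adjusted p = 0.0423), and 21.6% of the exon length of RpL24 is shared with CG7099 on the other strand.

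RpS15Ab had the lowest fitted change in NUAK550 muscle. Its level was 22.8, 28.5 and 24.7 CPM in lacZ muscle and 25.6, 28.3 and 27.4 CPM in NUAK550 muscle, and the groups overlapped. RpS15Aa rose from 798, 929 and 765 CPM to 1148, 1239 and 1214 CPM (log2 0.53, SE 0.12, adjusted p = 0.0256). The ratio of RpS15Aa to RpS15Ab counts was 32.9 ± 2.04 in lacZ, 40.6 ± 3.95 in NUAK548 and 44.3 ± 0.604 in NUAK550 muscle (SD, n = 3). RpLP0-like, related to a yeast assembly factor that precedes the stalk protein, was at 15.4, 14.9 and 18.5 CPM in lacZ and at 18.7, 25.2 and 21.8 CPM in NUAK550 muscle (log2 0.43, SE 0.16, adjusted p = 0.110).

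In whole larvae no ribosomal protein gene was called between the genotypes. The share of counts was 11.01%, 8.06% and 8.13% in lacZ, 8.80%, 10.2% and 9.36% in NUAK548 and 9.62%, 10.1% and 9.20% in NUAK550. The groups overlapped, with the first lacZ library the highest of all 9 and the other two the lowest. Of 89 members tested against lacZ, edgeR called none in NUAK548 or NUAK550.

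For NUAK548 the background was 0.0571% of genes higher and 0.0979% lower. At an unadjusted p below 0.05, 1 member was lower, against 736 genes higher and 556 lower of all 12255. DESeq2 called 0 members, against 231 genes higher and 219 lower. For NUAK550 the background was 0.596% higher and 0.212% lower. At an unadjusted p below 0.05, 1 member was higher and 6 lower, against 1545 and 2692 of all 12255 genes. DESeq2 called 1 member higher and 4 lower, against 995 and 1367 of all genes. Precision was lower than in muscle, with a median SE of 0.18 against 0.12 for the members' log2 changes. The median log2 change of the 81 abundant members was −0.02 in NUAK548 and 0.19 in NUAK550. Over all members tested the medians were −0.02 and 0.19 as well, and they were 0.15 and 0.38 without the first lacZ library and −0.13 and 0.09 without the third, again with none called. The summed body wall muscle markers were at 26878 to 32385 CPM in NUAK550 whole larvae, above the 2514 to 10808 CPM of lacZ and the 2796 to 8502 CPM of NUAK548 whole larvae, with none of the 10 called, and their part in these values was not tested.

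Among the core members, the highest fitted changes in whole NUAK550 larvae were those of RpL3, which lies at the peptidyl transferase centre (log2 0.36, SE 0.14, adjusted p = 0.121), RpLP0 (log2 0.32, SE 0.16) and RpS4 (log2 0.32, SE 0.15). RpL3 was at 2524, 2343 and 2126 CPM in lacZ and at 3058, 3096 and 2845 CPM in NUAK550, without overlap. Such a separation was seen in 5 members upwards and 6 downwards, against 19% and 26.1% of all genes. In NUAK548 the groups did not overlap in 0 members upwards and 4 downwards, against 9.29% and 6.74% of all genes. The highest core members there were RpS14a, RpS26 (log2 0.10, SE 0.18) and RpL23A (log2 0.09, SE 0.15). For both genotypes the lowest of the core were RpL10Aa, RpL37-2 and RpS10a. The latter pass the count filter in whole larvae only through the libraries where they are high. NUAK550 and NUAK548 whole larvae differed in no member by edgeR (background 0.131% higher and 0.00816% lower). There 1 member was higher and 5 lower at an unadjusted p below 0.05, against 1115 and 1510 of all 12255 genes. DESeq2 called 1 member lower, against 670 genes higher and 326 lower. The groups did not overlap in 27 members upwards and 2 downwards, against 14.5% and 9.64% of all genes. In that comparison RpS14b (log2 0.37) stood highest, and in the core RpS4 (0.36), RpL8 (0.34) and RpL7A (0.33).

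The low members behaved as a block of their own in whole larvae. RpL10Aa had 152, 73 and 92 counts in lacZ, then 162, 0 and 1 in NUAK548 and 0, 1 and 0 in NUAK550. RpL22-like, a copy known from the fly testis, had 209, 194 and 159 counts, then 156, 8 and 4, then 1, 2 and 2. RpL37-2 had 87, 46 and 46 counts, then 57, 1 and 0, then none in NUAK550, so that, with a floor of 3 counts for the whole group, lacZ was at least 59.6-fold higher. In each, the first NUAK548 library stood with lacZ and the other two with NUAK550.

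The same split was seen in 4 more members. RpS19b had 170, 132 and 123 counts in lacZ, 132, 9 and 20 in NUAK548 and 4, 10 and 9 in NUAK550. RpS10a had 70, 46 and 48 counts, then 53, 0 and 0, then 3, 2 and 1, and RpS28-like had 15, 9 and 14, then 10, 0 and 0, then none. RpS5b had 271, 169 and 223 counts, then 207, 56 and 72, then 42, 44 and 59, so it kept a level in every library. RpS28a and RpL7-like had at most 4 and 1 counts in any library.

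Markers of male and testis RNA split the libraries in the same way. The 12 fixed testis markers summed to 337 to 375 CPM in lacZ whole larvae, to 462, 38.0 and 30.7 CPM in the NUAK548 libraries and to 49.9 to 56.2 CPM in NUAK550. None of the 12 was at 0 in lacZ or in the first NUAK548 library, and 1 to 3 were at 0 in each of the other 5. Of the 5 germ cell markers used, bgcn, aub and bam split the libraries in this way too, and bgcn had 140, 125 and 153 counts in lacZ, 199, 9 and 15 in NUAK548 and 7, 11 and 7 in NUAK550. The sum of the 5 overlapped between the groups, at 47.6 to 91.0, 63.5 to 80.1 and 62.0 to 71.99 CPM, and was mostly ovo, with 708 to 1494 counts per library. Their part in the low members' values was not tested. Without the first NUAK548 library, edgeR called 7 members lower than lacZ in NUAK548 and 7 in NUAK550. This fit is singled out because that library's low-member counts stood with lacZ, so the calls are no separate support for the split. The shares of all genes called in it are not given here.

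**Figure D4:**
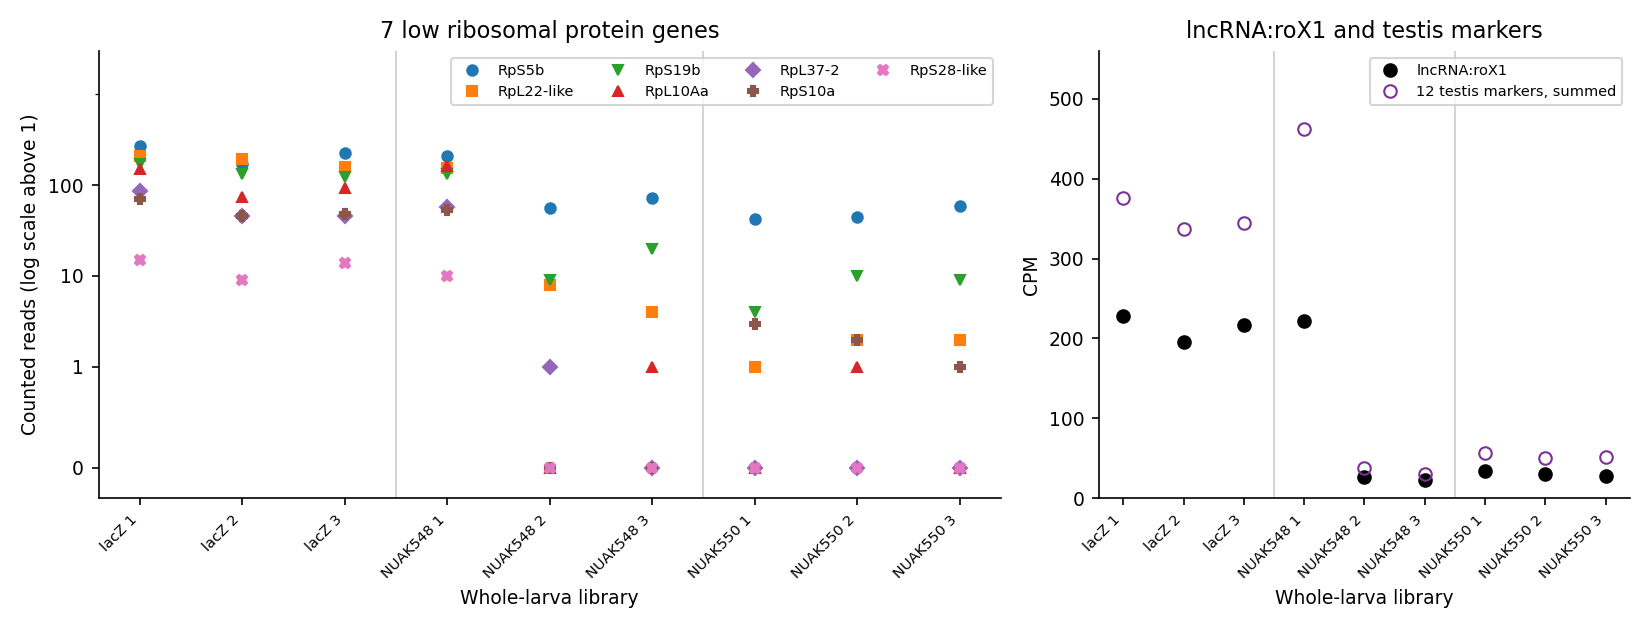
Counted reads of 7 low ribosomal protein genes in the 9 whole-larva libraries (left, log scale above 1) and the CPM of lncRNA:roX1 with the summed CPM of 12 testis markers in the same libraries (right), 1 point per gene or sum and library. The 3 lacZ libraries and the first NUAK548 library are high in both panels, and the other 5 are low.

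In muscle carcass the 9 low members had 19 to 34 counts per library in sum, most of them from RpS5b, which had 10 to 24. Only RpS5b passed the filter there, at log2 0.68 (SE 0.30, adjusted p = 0.179) in NUAK550 against lacZ. In a model of all 18 libraries, the NUAK550 effect in muscle minus that in whole larvae was called for 2 members, RpS5b (log2 difference 2.82, SE 0.50, adjusted p = 0.0143) and RpS19b (5.003, SE 1.11, adjusted p = 0.0390), where 0.998% of all genes had a higher and 0.821% a lower effect in muscle. RpS19b entered this model through the whole larvae, where it is high in lacZ, so its call rests on them. All 89 members had a difference above 0, with a median of 0.43 (0.15 over all genes). RpL10Aa, RpL22-like, RpL37-2 and RpS10a also entered through the whole larvae, so the sign of their differences was set in advance. The 81 abundant members alone were all above 0, with a median of 0.42. Of the 89, 39 had an unadjusted p below 0.05, against 2033 genes higher and 800 lower of all 12429. So the abundant members' shift in muscle and its lack of a call in whole larvae were not shown to differ for any abundant member. RpL41 came closest among the named ones (0.92, SE 0.27, adjusted p = 0.0806). For NUAK548 no member was called (background 0.515% and 0.394%), and the median difference was 0.27 (0.05 over all genes). At an unadjusted p below 0.05, 6 members were higher in muscle, against 736 genes higher and 559 lower. DESeq2 called 0 members, against 204 genes higher and 211 lower.

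In control larvae, members were compared between muscle carcass and the whole body. Of 89 tested, 27 were higher in muscle and 5 lower, where 22.4% and 37.1% of all genes were. The 81 abundant members had a median log2 difference of 0.28, while all genes had −0.21, a gap of 0.48 that stayed at 0.48 under median-ratio factors, TMM without the members and library totals. The direction against 0 depended on the scaling. With library totals the gap was the same, but 2 of the 81 were higher and 28 lower. Over all members tested, 2 were higher and 36 lower. In that setting 1308 of all 12429 genes were higher and 7083 lower. Without the first lacZ whole-larva library 74 members were higher and 5 lower. Without the second or the third lacZ whole-larva library, or the second lacZ muscle library, 14, 13 and 15 were higher, each with 5 lower. The shares of all genes called in these leave-out fits are not given here.

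The members highest in muscle were all of the 60S subunit. RpL38 (FBgn0040007), a peripheral protein known in mouse for its part in translating Hox messages, was at 801, 1069 and 874 CPM in lacZ muscle and 684, 456 and 424 CPM in lacZ whole larvae (log2 1.34, SE 0.23, adjusted p = 0.000323). RpL23 followed at log2 1.00 (SE 0.18, adjusted p = 0.000493), then RpLP2 (0.92, SE 0.20). The next smallest p-values were those of RpL27A (0.83, SE 0.17) and RpL24 (0.75, SE 0.17), which bridges the subunits. These CPM values were scaled within each preparation, and the log2 values came from the model of all 18 libraries. Across the 81 genes the difference had a Spearman rho of 0.47 with the level in lacZ muscle and of −0.15 with exon length, as a description over genes that share their libraries.

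The 5 members lower in muscle were all from the low set. Apart from RpS5b, they did not pass the count filter within muscle. They entered the model of all 18 libraries through the whole larvae, where they are high, so only a lower level in muscle could be called. RpS5b had 271, 169 and 223 counts in lacZ whole larvae and 10, 15 and 15 in lacZ muscle (log2 −3.34, SE 0.37, adjusted p = 8.36e-06). RpL22-like had 4 counts over the 3 lacZ muscle libraries and RpS19b 10. RpL10Aa and RpL37-2 had none, so that, with a floor of 3 counts for the whole group, lacZ whole larvae were at least 92.4-fold and 52.2-fold higher.

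**Figure D5:**
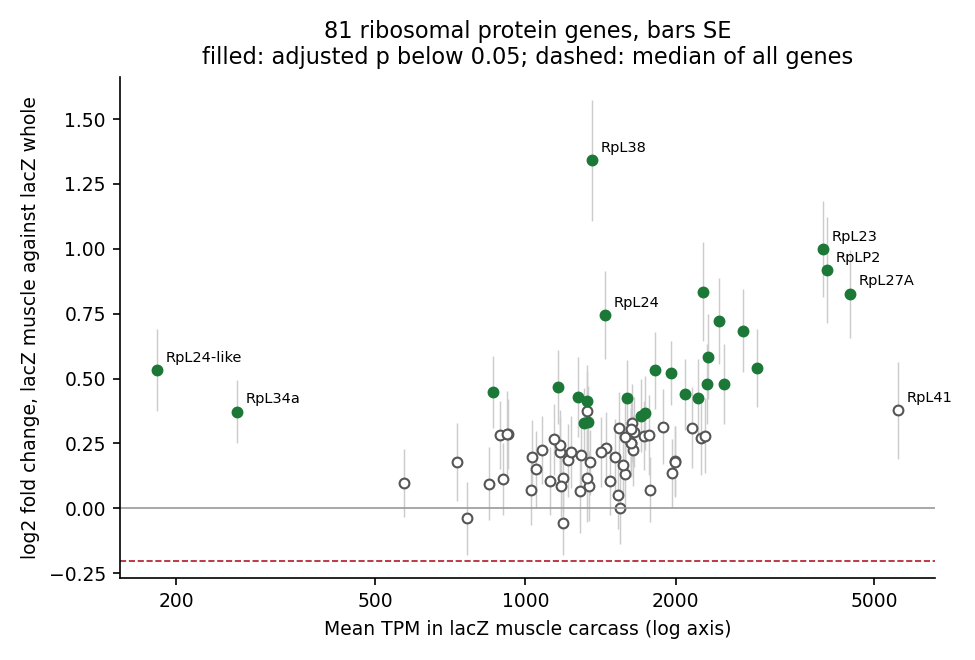
Fitted log2 difference between lacZ muscle carcass and lacZ whole larvae of the 81 abundant ribosomal protein genes against their mean TPM in lacZ muscle (log axis), 1 point per gene with its SE, filled where the adjusted p was below 0.05. RpL38 stands highest at 1.34, and the dashed line marks the median of all genes at −0.21.

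Genes that act with the ribosome were read from lists fixed alongside the members. Their counts stand against 6.45% of all genes higher and 6.11% lower in NUAK550 muscle, and 2.6% and 2.96% in NUAK548 muscle. The ribosomal proteins sta and Rack1 and the ribosome recycling factor pix all rose in NUAK550 muscle, by log2 0.53 (SE 0.12, adjusted p = 0.0261), 0.53 (SE 0.13, adjusted p = 0.0377) and 0.53 (SE 0.10, adjusted p = 0.0121), and none of the 3 was called in NUAK548 muscle (log2 0.28 to 0.38). Of 9 elongation and termination factors 4 rose in NUAK550 muscle, eEF1alpha1 (log2 0.63), eEF2 (0.48), eEF1gamma (0.51) and eEF1delta (0.43), with a list median of 0.44. None of the 9 was called in NUAK548 muscle.

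Of 32 initiation factors, 4 rose in NUAK550 muscle (eIF5B, eIF3l, eIF4A and eIF3h, log2 0.39 to 0.44), 1 fell (eIF2Bdelta, log2 −0.92, SE 0.16, adjusted p = 0.00982), and the list median was 0.21. In NUAK548 muscle eIF5B alone rose (log2 0.47, SE 0.09, adjusted p = 0.0196). Of 26 ribosome assembly genes 5 rose in NUAK550 muscle (peng, Non1, pit, Surf6 and Fib, the fibrillarin gene) and 4 in NUAK548 muscle (peng, Non1, Nopp140 and Mys45A), with list medians of 0.28 and 0.31. For all these lists the median of all genes was 0.03 in NUAK550 and 0.01 in NUAK548 muscle.

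Among 18 growth and ribosomal protein gene regulators, Thor, the translation repressor 4E-BP, rose in both NUAK groups in muscle, by log2 2.03 (SE 0.30, adjusted p = 0.00879) in NUAK548 and 1.73 (SE 0.30, adjusted p = 0.00973) in NUAK550. Xrp1 and Irbp18 encode partner transcription factors that in flies respond to the loss of a ribosomal protein gene copy. Both fell in both groups, Xrp1 at log2 −0.80 (SE 0.19, adjusted p = 0.0475) and −0.95 (SE 0.19, adjusted p = 0.0166), and Irbp18 at −0.998 (SE 0.13, adjusted p = 0.00520) and −1.16 (SE 0.13, adjusted p = 0.00170). No gene of the 5 lists was called in whole larvae for either genotype.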

How the data were processed

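The submitters' processing notes name Trimmomatic 0.36, STAR 2.5.2b, the genome build BDGP6 and, for counting per gene, featureCounts from Subread 1.5.2. Whether counting used strand is not given in the sources used here. Raw counts were deposited for 17411 genes in each of 18 libraries. The authors also deposited normalized signal, equal to counts divided by 1 factor per library, used here for 1 alternative. Per the labels' protocols, the input was 2.0 ug of total RNA and the kit NEBNext Ultra II. Gene symbols were matched by identifier for 17137 genes and by exon position for 223 (Jaccard index of at least 0.5), the latter including 5 members. The 51 unnamed genes held 0.0029% of counts. Coordinates are those of the deposited files.

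Counts were tested with edgeR 4.0.16 in R 4.3.3 (quasi-likelihood F test, filterByExpr, TMM, Benjamini-Hochberg over all genes, called below 0.05, two-sided). One fit per preparation used 9 libraries (9821 genes in muscle, 12255 in whole larvae, 6 residual degrees of freedom), and 1 fit of all 18 (12429 genes, 12 residual degrees of freedom) compared preparations and effects. DESeq2 1.42.0 and limma 3.58.1 served as alternatives. SE was derived from the log2 change and its F statistic. TPM were computed here from counts and exon lengths. The fit was tested on simulated data. Floors of 3 counts cover counting error only.

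The members, lists and named genes were chosen with earlier results of these data known. Named were the 5 called core members with the smallest p and the 3 with the highest and lowest change in each comparison, the extremes of level, members with a paralogue suffix with their partners, and called members of the lists. The germ cell marker vas was not used here. Same-numbered lacZ and NUAK548 whole-larva libraries deviated together from their group means (r = 0.16, 0.40 and 0.34), so their numbers may stand for pairs. The labels do not say so, and the main fits used no replicate block. With the block 0 members were called between these groups, as without it. Libraries of a group differed beyond sampling noise (chi-square per degree of freedom of 41.0 or more), so none was counted as a duplicate.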

Additional observations from a re-analysis of the deposited data

Results flagged for a closer look

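For 2 members the NUAK550 effect differed between the preparations by the test of the difference itself, in edgeR's model of all 18 libraries. RpS5b had a log2 difference (muscle minus whole larvae) of 2.82 (SE 0.50, adjusted p = 0.0143), and it stayed called in all 25 alternatives. It stood at 0.620, 0.870 and 0.912 CPM in lacZ muscle, at 1.45, 1.03 and 1.39 CPM in NUAK550 muscle, at 13.5, 10.3 and 11.5 CPM in lacZ whole larvae and at 3.09, 2.65 and 2.82 CPM in NUAK550 whole larvae. RpS19b had a log2 difference of 5.003 (SE 1.11, adjusted p = 0.0390), and the call was lost in 13 of 25 alternatives. RpS19b had at most 8 counts in any muscle library and did not pass the count filter within muscle. Its difference rests on the whole-larva libraries, where the lacZ libraries had 170, 132 and 123 counts and the NUAK550 libraries 4, 10 and 9. Both genes are copies known in flies for germ line expression. The summed testis markers were at 337 to 375 CPM in lacZ and 49.9 to 56.2 CPM in NUAK550 whole larvae, and lay between 49.9 and 71.1 CPM in all 9 muscle libraries. Their part in these differences was not tested. The CPM values were scaled within each preparation.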

How the results depend on the processing

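Counts of called members moved with the processing. For fits that left out 1 library, the shares of all genes called are not given here. For NUAK548 against lacZ in muscle, where edgeR called 1, DESeq2 called 18, and 0 were called without a low-count filter, with the lncRNA:roX1 covariate, with the replicate block, with only the groups compared in the fit, and without any 1 library (0 to 0). For NUAK550 against lacZ in muscle, where 68 were called, library totals gave 32 (an alternative chosen after seeing the data), no low-count filter 34, the lncRNA:roX1 covariate 0, the replicate block 17, and leaving out 1 library 3 to 70. DESeq2 called 36 for NUAK550 against NUAK548 in muscle, where edgeR called 0 (0 to 0 leaving out 1 library). In whole larvae, where edgeR called 0 in each comparison, NUAK550 against lacZ gave 5 with DESeq2, 6 with only the groups compared, 5 with limma on the authors' normalized values and 0 to 7 leaving out 1 library. NUAK550 against NUAK548 gave 1 with DESeq2, and NUAK548 against lacZ 0 to 7 leaving out 1 library. For lacZ muscle against lacZ whole larvae, library totals gave 38 calls, with the direction turned among the abundant members. In that setting 1308 of all 12429 genes were higher and 7083 lower. Leaving out 1 library gave 18 to 79. The NUAK550 effect, muscle minus whole, gave 4 calls with DESeq2, 7 with the lncRNA:roX1 covariate, 1 with the replicate block and 1 to 5 leaving out 1 library, and the NUAK548 effect 0 to 4, the highest of both without the first NUAK548 whole-larva library. The cause was not tested.

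With the lncRNA:roX1 covariate the NUAK550 muscle change turned to log2 −0.064 in RpL10Ab, −0.60 in RpL24, −0.14 in RpL34a, −0.61 in RpL41 and −0.039 in RpS28b. With library totals the muscle against whole difference turned to −0.12 in RpL34a, −0.13 in RpLP0, −0.030 in RpS10b, −0.081 in RpS15Aa and −0.067 in RpS28b. Of the 23 named members of the NUAK550 muscle comparison, 23 kept their calls with DESeq2 and 23 with TMM computed without the members. With median-ratio factors 21 did, with limma 21, and with only the groups compared 18. Fewer did with no low-count filter (10), library totals (9) or the replicate block (7). With the lncRNA:roX1 covariate 18 were weaker and 5 reversed. RpS13 held in 3 and RpL26 in 6 of 18 alternatives.

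In muscle, and with NUAK550 in whole larvae, the replicate numbers of the labels did not pair the libraries. Deviations from the group means of same-numbered libraries correlated at −0.40 to 0.36 in muscle and −0.03 to 0.40 in whole larvae, and 2 of 9 and 7 of 9 libraries correlated best with their own number, a hint from the data only. The headers of the NUAK550 whole-larva files carry other numbers than the labels, which were followed. Pairing of those libraries by header number was not tested. Low members rest on few counts, so that differences among them in muscle were not detectable at this depth.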
